A study of Homo sapiens with 6 samples.

Results

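The 2 paralogs SAMD9 and SAMD9L and the 6 schlafen genes SLFN5, SLFN11, SLFN12, SLFN12L, SLFN13 and SLFN14 were followed in COV434 cells after BRG1 reexpression. They were taken by symbol from the deposited expression table, which held all 8 among 19899 genes. RNA-seq had been performed on 3 biological replicates of COV434, an ovarian tumor line that the study counts among its SCCOHT lines, that is, lines of a small cell ovarian carcinoma that has lost BRG1 (SMARCA4), an ATPase of the SWI/SNF chromatin remodeler. Control cells carried the plasmid pCDNA3-neo and BRG1 cells the plasmid PBJ5-BRG1. Both also carried pBABE-puro, and both were put on puromycin at 2 to 3 µg/ml from 24 hours after transfection for 3 days. The samples are pools of transiently transfected cells of 1 line. The plasmids of the groups differ in backbone as well as in insert, so an effect of the backbone and an effect of BRG1 cannot be told apart.

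SAMD9 and SAMD9L are large cytoplasmic proteins that are induced by interferon, restrict poxviruses and slow translation and cell growth. Schlafen proteins share a domain that in several members cuts transfer RNA, and several are likewise induced by interferon. Type I interferon acts through its receptor, the kinases JAK1 and TYK2 and the complex ISGF3, which contains STAT2 and IRF9 and binds the interferon-stimulated response element in the promoters of target genes.

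Libraries held between 29699741 and 63613710 estimated counts, and BRG1 sample 3 was the shallowest. SMARCA4, the transfected gene, stood at 34.0 ± 2.64 CPM (estimated counts relative to the library size, which was scaled with TMM factors) in Control and at 1915 ± 342 CPM in BRG1 samples (SD, n = 3), plasmid transcripts included. The other ATPase gene, SMARCA2, was at or below 0.773 CPM in every sample. Of 8 granulosa cell markers 4 had too few counts to be tested, with FOXL2 and FSHR at 3.44 estimated counts or fewer and AMHR2 at 0 in every sample. AMH (6.47 and 8.81 CPM in Control and BRG1 samples) and INHA were expressed in both groups, INHBA (2.01 to 15.04 CPM) and CYP19A1 (0.509 to 6.93 CPM) were called higher, and the summed level of the list went from 8.78 to 11.6 CPM in Control to 20.8 to 43.9 CPM in BRG1 samples. Of 10 leukocyte markers 5 were at or below 3 counts in every sample, and the summed level of the list was 7.67 to 14.9 CPM in Control and 8.17 to 16.7 CPM in BRG1 samples, most of it from PTPRC. LYZ of that list was called higher, at 0.0201 and 0.412 CPM, as were HBB (0.0488 and 0.702 CPM) among 7 megakaryocyte and erythroid markers and PDGFRA (0.141 and 1.43 CPM) among 5 fibroblast markers. The megakaryocyte and erythroid list summed to 0.783 to 1.43 CPM in Control and 1.42 to 1.85 CPM in BRG1 samples. The fibroblast list summed to 26.5 to 29.7 CPM in Control and 23.3 to 29.9 CPM in BRG1 samples. NKG7, PF4 and LUM of these lists lay lower in every BRG1 sample than in every Control sample and were not called. GATA1 did so too, at 1.99 estimated counts or fewer, and was not tested. Of all genes tested, 11% showed this pattern. Of the 4 endothelial markers VWF and CDH5 were called higher, and the summed level of that list went from 29.1 to 48.0 CPM in Control to 113 to 132 CPM in BRG1 samples. Most of the Control sum came from KDR (39.1 and 42.5 CPM in Control and BRG1 samples), which like PECAM1 was not called. Most of the rise came from VWF (0.981 to 75.6 CPM). The part of these marker differences in the results below was not tested. In bulk samples a change in the number of cells that express a gene and a change in RNA per cell cannot be told apart.

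BRG1 reexpression was accompanied by a switch of SAMD9 and SAMD9L from almost no counts to a clear level, whereas the schlafen genes stayed low or silent. In edgeR's quasi-likelihood test with an adjusted p under 0.05 as the threshold, 2 of the 8 members, SAMD9 and SAMD9L, were called higher with BRG1 and 0 were called lower (0 also at an unadjusted p under 0.05). Across all 15780 genes tested 9.32% were called higher and 0.989% lower. DESeq2 called the same 2 members, where 11.1% of genes were higher and 2.01% lower, and 0 members were called lower by limma-voom (1.2% of genes) or without a count filter (0.823% of genes). Likewise, 0 members had every BRG1 sample below every Control sample, which held for 11% of genes. In 6 members, however, every Control sample held 3 counts or fewer, which left no room for a fall. The counts of 0 therefore say little about the members. Only 4 members, SAMD9, SAMD9L, SLFN5 and SLFN13, passed the minimum of 15 counts summed over the 6 samples. SAMD9 and SLFN13 passed it through the BRG1 samples, and the other 4 members were not tested in this fit.

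SAMD9 (chromosome 7, 93099513 to 93118023, minus strand, GRCh38, GENCODE release 44) was next to silent in Control. Control samples 1 to 3 held 0, 1.56 and 0 estimated counts, while BRG1 samples 1 to 3 held 1212, 882 and 315. These are 18.7, 15.9 and 10.3 CPM in BRG1 samples, so that every BRG1 sample lay far above every Control sample and BRG1 sample 3 was the lowest of its group. With Control at the floor of 3 counts per library, the rise to 14.9 ± 4.27 CPM (SD, n = 3) was at least 217-fold. The fitted log2 fold change was 9.75 ± 0.64 (standard error, edgeR adjusted p 9.98e-05), a size that depends on the handling of zeros and is no bound. Of the genes tested, 330 (2.09%) were likewise called higher from a Control group in which each library held 3 counts or fewer. Of the 31-base words of the SAMD9 transcript 0.0295% recur in other genes, and 0.365% of those of SAMD9L do.

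SAMD9L lies beside SAMD9 (chromosome 7, 93130056 to 93148385, minus strand), with 12032 bases between them. Control samples held 16.9, 0 and 1.59 estimated counts, and BRG1 samples held 2261, 1467 and 451. Control sample 1 was thus the 1 library with SAMD9L above the floor, and within replicate number 1 the level was 77.0-fold higher with BRG1. In CPM, SAMD9L went from 0.159 ± 0.254 to 25.3 ± 10.1 (SD, n = 3), with BRG1 samples 1 to 3 at 34.8, 26.4 and 14.7. The log2 fold change was 7.42 ± 0.87 (standard error, edgeR adjusted p 0.00123). Without Control replicate 1 both remaining Control libraries were at the floor, the rise was at least 399.8-fold (3 counts per library), and the fitted log2 fold change was 10.15, again no bound. SAMD9L was called under every alternative tried, as was SAMD9.

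The paralogs kept a common order within the BRG1 samples. The ratio of SAMD9 to SAMD9L estimated counts was 0.536, 0.601 and 0.698 in BRG1 samples 1 to 3, and 0.563, 0.632 and 0.734 per kilobase of transcript. SAMD9L was therefore the higher of the pair in 3 of 3 samples, though their ranges per kilobase overlapped (1.51 to 2.75 for SAMD9 and 2.06 to 4.87 CPM for SAMD9L). SMARCA4 stood at 2309, 1712 and 1723 CPM and IRF9 at 138, 164 and 139 CPM in the same samples. BRG1 sample 3 was lowest for both paralogs. Its SMARCA4 level was close to that of BRG1 sample 2, and its IRF9 level was close to that of BRG1 sample 1, the lowest for each. Whether the paralogs differ in their response could not be settled. The difference of their log2 ratio between groups was 0.06 (two-sided exact permutation p 1, with 0.1 the smallest that 3 samples against 3 allow), and its sign turned with the pseudocount and with Control sample 1.

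**Figure D1:**
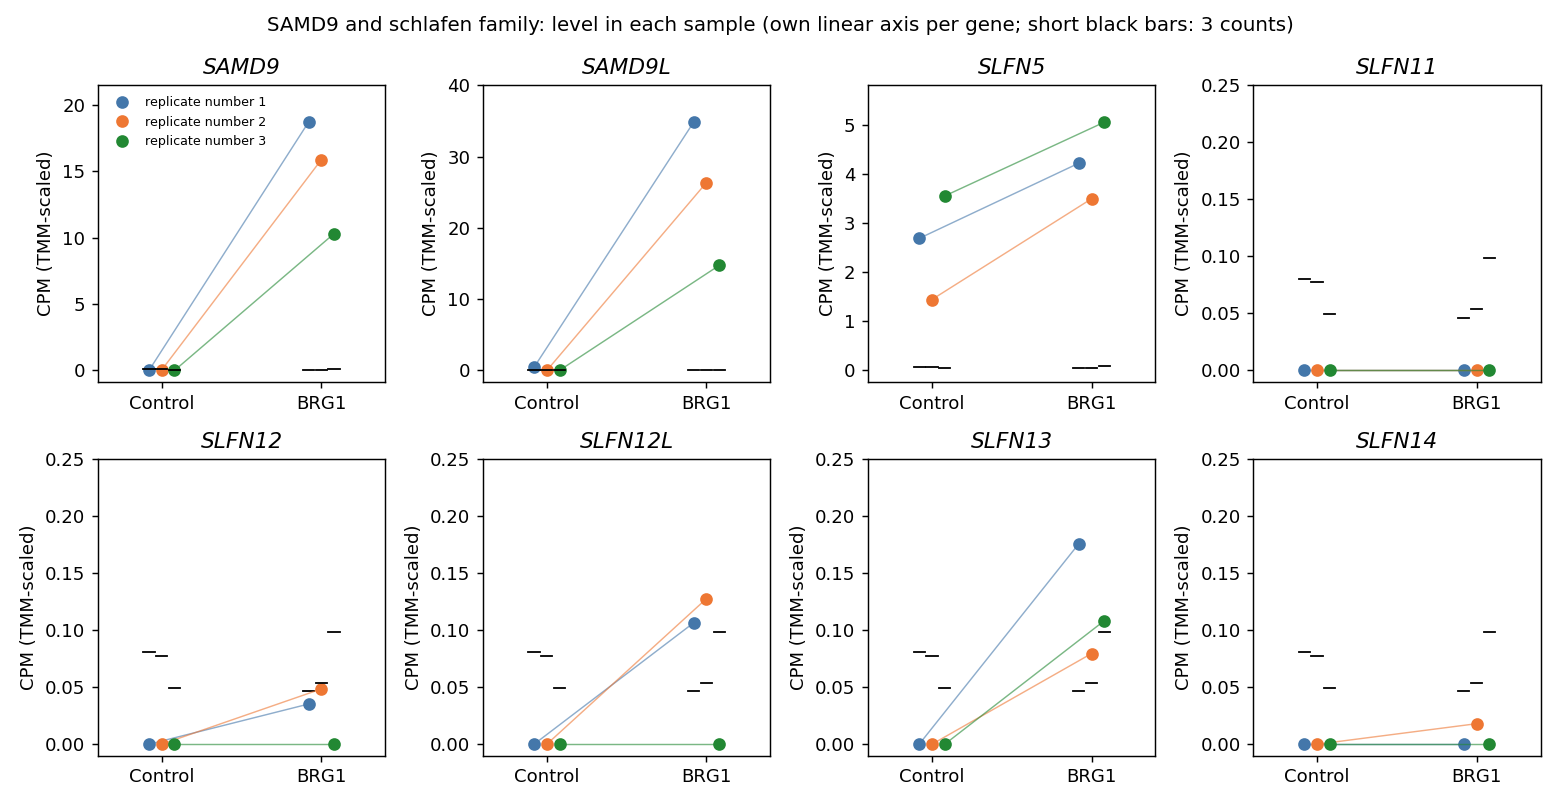
TMM-scaled CPM (vertical axis, linear, a scale of its own for each gene) of the 8 members in the 3 Control and 3 BRG1 samples, with points of the same replicate number in 1 color joined by a line and short black bars at the level that 3 counts give in each library. SAMD9 and SAMD9L rise in every replicate number to between 10.3 and 34.8 CPM, SLFN5 moves between 1.45 and 5.07 CPM, and the other schlafen genes stay at or below 0.175 CPM.

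The promoters of the members that have an entry in the RefSeq table (GRCh38.p14) are shown because several members are known interferon targets, so that a reader can see which interferon-type words each carries. Entries were found for 5 of the 8 members, SAMD9, SAMD9L, SLFN11, SLFN12 and SLFN12L. Each runs from 250 bases before to 50 bases after the RefSeq start, counted as base 0, and the part shown lies before both the RefSeq and the GENCODE start. Capitals mark matches on either strand to GAAA repeated after a gap of any 2 bases (the core of the interferon-stimulated response element), to AANNGAAA (a shorter core of interferon regulatory factor sites, which overlaps the former and was added after the sequences were seen), to TTCNNNGAA (the core of the interferon gamma-activated site, GAS) or to TGACTCA (the AP-1 core). The windows lie at chr7:93118024-93118229 for SAMD9, chr7:93148386-93148635 for SAMD9L, chr17:35537679-35537928 for SLFN12L and chr17:35373702-35373871 for SLFN11, all on the minus strand.
SAMD9: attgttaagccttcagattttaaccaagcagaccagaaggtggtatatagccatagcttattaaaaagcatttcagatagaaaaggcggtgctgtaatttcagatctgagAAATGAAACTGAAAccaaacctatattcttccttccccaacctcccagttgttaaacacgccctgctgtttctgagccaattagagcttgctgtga
SAMD9L: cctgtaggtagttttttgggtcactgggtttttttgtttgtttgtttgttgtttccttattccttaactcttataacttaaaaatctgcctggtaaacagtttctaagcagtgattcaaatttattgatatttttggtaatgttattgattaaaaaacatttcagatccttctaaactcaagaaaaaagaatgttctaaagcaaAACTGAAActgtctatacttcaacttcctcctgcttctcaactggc
SLFN12L: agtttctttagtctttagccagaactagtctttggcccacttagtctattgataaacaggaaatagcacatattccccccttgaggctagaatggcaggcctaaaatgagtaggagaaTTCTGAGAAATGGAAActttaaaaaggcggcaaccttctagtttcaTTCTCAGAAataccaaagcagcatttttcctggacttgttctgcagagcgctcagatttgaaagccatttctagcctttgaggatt
SLFN11: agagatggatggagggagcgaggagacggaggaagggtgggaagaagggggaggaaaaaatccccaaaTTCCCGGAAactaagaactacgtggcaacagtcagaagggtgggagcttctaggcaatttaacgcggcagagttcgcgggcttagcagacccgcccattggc

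The SAMD9 promoter held the full interferon element core at bases -136 to -127, and SAMD9L held only the shorter core, at bases -46 to -39. The full core was present in 3.57% and the shorter core in 22.8% of 35116 promoters of this length. SAMD9 and SAMD9L shared the 10-base word AAACTGAAAC overlapping these matches, 1 of 3 words of that length common to both promoters. SLFN12L also held the full core, at bases -126 to -117, and a pair of GAS cores, while SLFN11 held a single GAS core (bases -182 to -174) and neither interferon core. GAS cores were found in 7.66% of promoters. The SLFN12 promoter, not printed, held 2 short cores and an AP-1 core at bases -208 to -202, which 4.95% of promoters held. The full core was thus found both in SAMD9, which rose, and in SLFN12L, which held few counts or none. A match in letters is a description of these windows only. The GC content was 39.7% for SAMD9, 34.3% for SAMD9L, 43.0% for SLFN12L, 53.3% for SLFN12 and 58.0% for SLFN11. The median over all promoters was 58.7%.

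The schlafen genes form a cluster of 317749 bases on chromosome 17. SLFN5, a nuclear schlafen protein known as an interferon target, is transcribed from the plus strand at its edge (35243071 to 35273655) and was the 1 schlafen gene with a measurable level in Control. Control samples held 101, 56.1 and 217 estimated counts, or 2.69, 1.45 and 3.56 CPM, and BRG1 samples held 274, 195 and 155, or 4.23, 3.50 and 5.07 CPM. The groups overlapped, since BRG1 sample 2 lay just under Control sample 3. The means were 2.57 ± 1.06 CPM in Control and 4.27 ± 0.782 CPM in BRG1 samples (SD, n = 3). The log2 fold change of 0.72 ± 0.36 (standard error) did not pass the test (edgeR adjusted p 0.310). Within replicate numbers 1 to 3 the level was 1.57-, 2.42- and 1.42-fold higher with BRG1, so that 3 of 3 pairs went the same way.

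SLFN11, which blocks stressed replication forks and sensitizes tumor cells to DNA-damaging drugs, was listed at 0 estimated counts in all 6 samples (chromosome 17, 35350305 to 35373701, minus strand). The 3 counts that a total of 0 allows correspond to at most 0.0462 to 0.0982 CPM in single libraries, or 0.0199 CPM over the 3 BRG1 libraries together. An SLFN11 level under these limits was not detectable at this depth. SLFN11 shares 17.1% of its 31-base words with SLFN13. It was 1 of 1777 genes at 0 in every sample.

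SLFN13, an endoribonuclease that cuts transfer RNA and ribosomal RNA, was at 0 in every Control sample and at 11.4, 4.42 and 3.30 estimated counts in BRG1 samples 1 to 3 (chromosome 17, 35435096 to 35448837). Every BRG1 sample was above every Control sample, a pattern that 16.4% of the genes tested showed. The mean of 0.121 ± 0.0493 CPM (SD, n = 3) in BRG1 samples was 1.75 times the mean Control floor. This is no firm bound, as BRG1 sample 2 (0.0794 CPM) lay under the floor of Control sample 1 (0.0804 CPM). The edgeR adjusted p was 0.0523 and missed the threshold, and limma-voom gave 0.0202, where 9.27% of all genes were called higher. The counts are few and 10.4% of the words of the SLFN13 transcript are shared with SLFN11, which leaves its level uncertain.

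The remaining members were at the limit of detection. SLFN12, the partner of the phosphodiesterase PDE3A in a complex formed by certain drugs, held 0 counts in each Control sample and 2.28, 2.69 and 0 in BRG1 samples (35410922 to 35433283). SLFN12L held 0 in each Control sample and 6.90, 7.09 and 0 in BRG1 samples (35464249 to 35537678). Its mean CPM in BRG1 samples was 1.13 times the mean Control floor, and is no firm bound with BRG1 sample 3 at 0. Overlap with exons annotated to other genes takes up 11.9% of SLFN12L exons, and 20.8% of its words recur in other genes, which leaves its few counts uncertain. SLFN14, known from platelets and red cell precursors, held a single estimated count, in BRG1 sample 2 (35543985 to 35560819). Fitted without a count filter, the 3 genes had edgeR adjusted p-values of 0.338, 0.172 and 0.651, respectively, where 8.1% of 18096 genes were called higher. All counts of these genes came from BRG1 samples 1 and 2, the deepest of the BRG1 libraries. Control sample 3, with 61519212 estimated counts against 54451035 in BRG1 sample 2, held 0 for each gene. The part of depth in this was not tested. A change in SLFN12, SLFN12L or SLFN14 was not detectable at this depth.

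Compared per kilobase of canonical transcript, the order of the members differed between groups. In Control SLFN5 stood first with 0.243 ± 0.101 CPM per kilobase, SAMD9L followed with 0.0223 ± 0.0355, SAMD9 had 0.00197 ± 0.00342, and the other 5 were at 0 (SD, n = 3). In BRG1 samples SAMD9L (3.54 ± 1.41) and SAMD9 (2.20 ± 0.627) came first, without separation beyond their spread, and SLFN5 (0.404 ± 0.0741) lay below the lowest sample of each. SLFN13 (0.0144 ± 0.00587), SLFN12 (0.0111 ± 0.00998) and SLFN12L (0.00589 ± 0.00517) followed and could not be ordered among themselves.

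Genes around the members were examined to see whether the change extended along the chromosome. Of 7 genes of the table near SAMD9 and SAMD9L, 6 could be tested and 0 were called in either direction. CDK6, the kinase gene next to SAMD9, had a log2 fold change of -0.22 (edgeR adjusted p 0.690), and VPS50, on the SAMD9L side, of 0.22 (edgeR adjusted p 0.521). Of the genes compared at this locus, SAMD9 and SAMD9L were the 2 that were called. Around the schlafen cluster 5 of 7 neighbors could be tested, and NLE1, a ribosome assembly factor, was called lower (40.2 ± 1.57 against 25.4 ± 4.26 CPM, log2 fold change -0.67, edgeR adjusted p 0.0270). AP2B1, on the SLFN14 side, did not pass the test (edgeR adjusted p 0.998). At low levels, every BRG1 sample lay above every Control sample for 4 neighbors, a pattern that 16.4% of all genes tested showed. They were CALCR (log2 fold change 1.01) and GNGT1 (1.09), past VPS50 on the SAMD9L side, and RASL10B (1.68) and GAS2L2 (1.24) beyond SLFN14. These 4 genes did not pass the edgeR test (adjusted p 0.319, 0.304, 0.105 and 0.0816), and DESeq2 called GAS2L2 (adjusted p 0.0326).

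**Figure D2:**
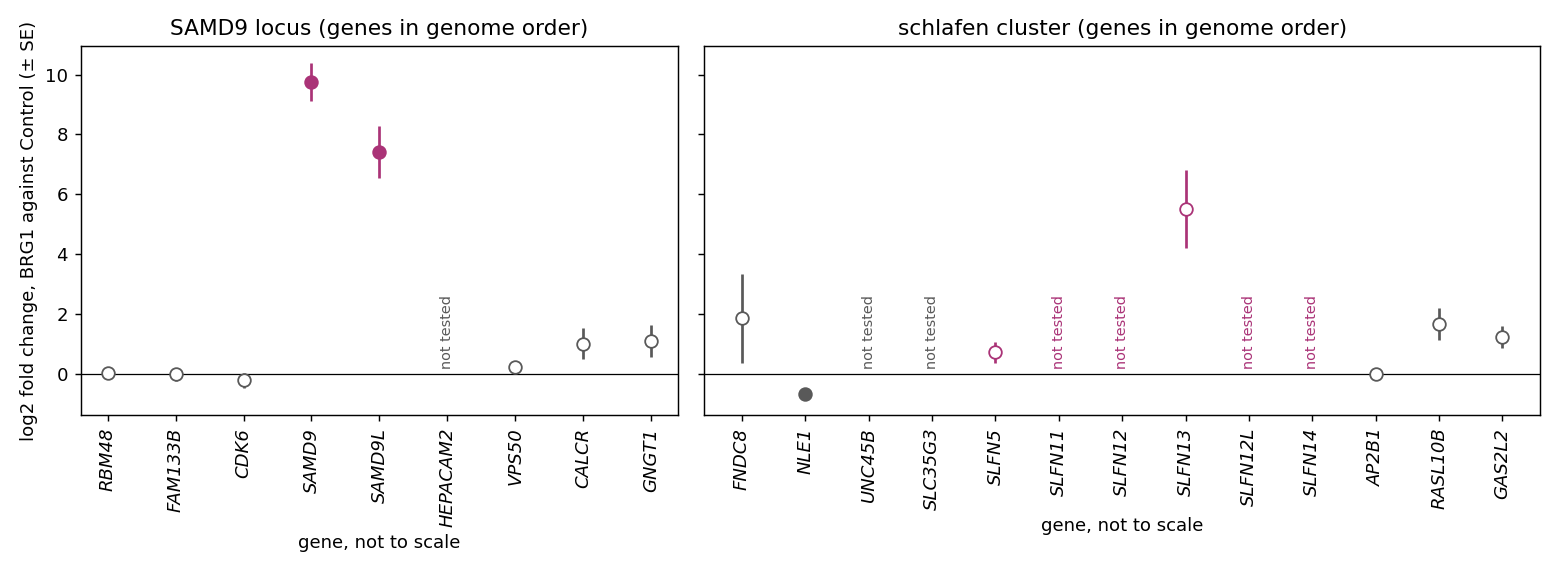
edgeR log2 fold change with its standard error (vertical axis, shared) of SAMD9 and SAMD9L, of the schlafen genes and of genes nearby on each side, in genome order and not to scale (members purple, neighbors gray, filled where the adjusted p was under 0.05). SAMD9 (9.75) and SAMD9L (7.42) stand above neighbors that lie between -0.22 and 1.09, and NLE1 (-0.67) is the filled neighbor at the schlafen cluster; fitted values of genes with Control at the floor are no bounds.

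Since SAMD9, SAMD9L and several schlafen genes belong to the interferon response, the signaling genes above them were compared. Of 11 interferon receptor and ISGF3 signaling genes 4 were called higher and 0 lower, with a median log2 fold change of 0.49 against -0.04 over all genes. Of all genes tested, 9.32% were called higher and 0.989% lower. IRF9 went from 34.0 ± 0.68 CPM (SD, n = 3) in Control to 138, 164 and 139 CPM in BRG1 samples 1 to 3 (log2 fold change 2.11, edgeR adjusted p 5.70e-05), and STAT2 from 77.6 ± 12.9 to 193 ± 19.4 CPM (1.31). USP18 and SOCS1, which restrain the pathway, rose by 3.48 and 1.88 on the log2 scale. The receptor genes IFNAR1 and IFNAR2 had log2 fold changes of -0.09 and 0.07, and TYK2, IRF3 and IRF7 likewise did not pass the test. JAK1 (0.49) and IRF1 (1.35) passed it only with the replicate number as a block, where 13.1% of all genes were called higher. Their log2 fold changes with the block were 0.47 and 1.52 (edgeR adjusted p 0.0304 and 3.93e-04).

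The interferon effectors that act on RNA or on translation, processes in which several of the members act, moved with SAMD9 and SAMD9L. Of 13 genes 12 were called higher and 0 lower, with a median log2 fold change of 4.34, where 9.32% of all genes were called higher. OAS2 and OAS1, sensors of double-stranded RNA, rose by 8.69 and 7.79 on the log2 scale, and IFIT3, a partner of cap-binding IFIT proteins, rose by 7.03. The kinase EIF2AK2 (PKR), which halts translation, rose from 90.6 ± 17.2 to 300.2 ± 40.5 CPM (log2 fold change 1.73, edgeR adjusted p 4.95e-04). KHNYN (log2 fold change 0.01) did not pass the test. The summed level of the list was 728 to 860 CPM in Control and 3295 to 3371 CPM in BRG1 samples. ADAR and ZC3HAV1 had the smallest changes that passed the test in this list (0.97 each). Whether the changes of these genes differ from those of the members was not tested.

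**Figure D3:**
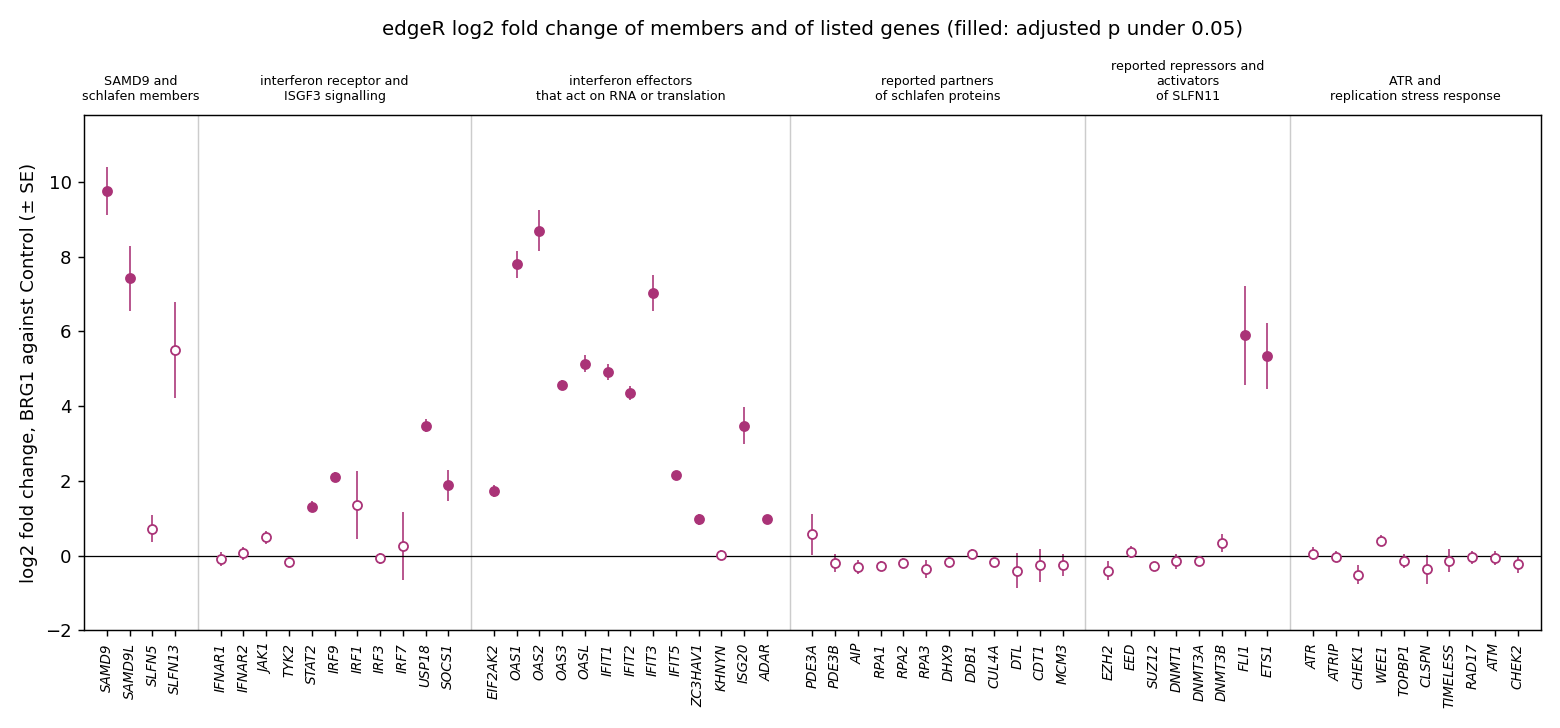
edgeR log2 fold change with its standard error (vertical axis) of the 4 members tested and of the listed genes, by list, filled where the adjusted p was under 0.05. SAMD9, SAMD9L and 12 of 13 RNA-directed interferon effectors are filled and above 0. All 12 reported partners of schlafen proteins are open and lie between -0.41 and 0.57. Fitted values of SAMD9, SLFN13 and FLI1, whose Control samples were at the floor, are no bounds.

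Genes reported to work with schlafen proteins were compared as well. Of 12 partners 0 were called in either direction, with a median log2 fold change of -0.23. Across all genes tested 9.32% were called higher and 0.989% lower, so a count of 0 among so few genes lies near these shares. PDE3A, the partner of SLFN12, was itself low at 0.225 ± 0.117 CPM in Control and 0.327 ± 0.0772 CPM in BRG1 samples. RPA1, through which SLFN11 reaches replication forks, had 132 ± 7.32 and 110 ± 16.1 CPM (edgeR adjusted p 0.294). Of 10 genes of the ATR response, the checkpoint that SLFN11 acts beside, 0 were called (median log2 fold change -0.10), likewise near these shares. WEE1 (0.40) was called only with the replicate block (log2 fold change 0.39, edgeR adjusted p 0.0463), where 13.1% of all genes were called higher.

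Among 8 genes reported to repress or activate SLFN11, 2 were called higher and 0 lower, and both are activators of the ETS family. The shares over all genes tested were 9.32% higher and 0.989% lower. ETS1 went from 1.42 ± 0.661 to 56.6 ± 41.8 CPM (log2 fold change 5.35, edgeR adjusted p 0.00631), with BRG1 samples 1 to 3 at 81.3, 80.1 and 8.29 CPM, and its call was lost with limma-voom (adjusted p 0.0686). FLI1 had 0 counts in every Control sample and 0.151 ± 0.081 CPM in BRG1 samples, and its call (edgeR adjusted p 0.0448) was lost with the replicate block (0.0523) and with DESeq2 (0.0597). SLFN11 stayed at 0 in the same libraries. The repressor genes EZH2 (41.1 ± 12.3 and 31.2 ± 8.53 CPM) and DNMT1 (118 ± 21.2 and 106 ± 25.6 CPM) were expressed in both groups and did not pass the test, though EZH2 was called lower with the block (log2 fold change -0.40, edgeR adjusted p 0.0308), where 5.73% of all genes were.

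The genes most like the members that rose were found by Pearson correlation of log2(CPM + 0.1) over the 6 samples, among 11752 genes with a mean of at least 100 counts. CST4 (r = 1.00), ESM1 (r = 1.00) and SERPINA5 (r = 0.999) were closest to SAMD9, and RSAD2 (r = 0.999), ENPP2 (r = 0.998) and NDRG4 (r = 0.998) to SAMD9L. RSAD2 encodes viperin, an antiviral enzyme, and rose from 0.498 to 52.1 CPM. The paralogs had r = 0.969 with each other and ranked 431 and 283 in each other's lists, behind many other genes that are low in Control and high with BRG1. SLFN5 had r = 0.658 with SAMD9 and 0.711 with SAMD9L. The 6 points fall into 2 groups and share libraries, so these values describe likeness only.

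SLFNL1, a schlafen-like gene outside the cluster on chromosome 1, was looked at after its values were seen. Control samples held 19.5, 24.2 and 44.1 estimated counts and BRG1 samples 192, 65.4 and 31.1, which is 0.623 ± 0.101 and 1.72 ± 1.08 CPM (SD, n = 3). BRG1 sample 1 carried most of the difference, and the log2 fold change of 1.48 was not called by edgeR (adjusted p 0.113), while DESeq2 gave an adjusted p of 0.0474.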

How the data were processed

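RNA of 3 Control and 3 BRG1 samples (500 ng each) was made into unstranded poly(A) libraries and sequenced from both ends (78 bases). The authors aligned reads with STAR (v2.5.3a) to GENCODE on hg38, quantified transcripts with salmon (v0.8.2), summed them to genes with tximport and deposited estimated counts (lengthScaledTPM), which are not divided by library size. A read with several possible genes is divided among them by salmon, and antisense transcripts are not separated.

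Here the estimated counts were rounded, and genes with at least 15 counts over the 6 samples were tested with edgeR (v4.0.16), TMM factors and Benjamini-Hochberg adjustment over all 15780 genes. Standard errors were derived from the quasi-likelihood F. DESeq2 (v1.42.0), which the study names, and limma-voom (v3.58.1) were alternatives. On simulated data the share of false calls was above the nominal threshold for each fit and highest for DESeq2, with and without the block. This is why edgeR was the main test. The simulated counts used dispersions estimated with edgeR and held no replicate effect, so they cannot rank the tools or judge the block for these samples. CPM used TMM-scaled library sizes. Depth sets the precision, and limits for 0 counts cover counting error only. The labels number the replicates 1 to 3 in each group, and over 14284 genes same-numbered samples deviated together from their group means (r = 0.404, 0.384 and 0.499), so the numbers were treated as pairs in the blocked fit.

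Members and lists were chosen with earlier results of these data known. Named genes were the members, the lists, up to 4 neighbors on each side of each locus and, for each called member, the 3 most similar genes. Coordinates came from GENCODE release 44 on GRCh38, the build of the files, and promoters from RefSeq. A few genes of the lists and loci are not reported here and were left out of their counts.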

Additional observations from a re-analysis of the deposited data

How the results depend on the processing

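SAMD9 and SAMD9L were called higher under each tool, filter, scaling and pairing tried and without each sample in turn. Leaving out a sample moved the fitted log2 fold change of SAMD9 between 9.01 and 12.54 and that of SAMD9L between 6.80 and 10.15. That of SLFN5 ran from 0.44 to 1.04 and was called in none of these fits, and that of SLFN13 from 5.43 to 5.71, likewise not called. Without BRG1 replicate 1 or 2, SLFN13 fell under the count minimum and had no value. With the replicate block the adjusted p of edgeR was 0.0508 for SLFN5 and 0.0673 for SLFN13, so that no call of a member changed. limma-voom alone called SLFN13 (log2 fold change 3.41), and thus 3 members instead of 2. The SAMD9 against SAMD9L log2 ratio (0.06) was -0.51 with a pseudocount of 1 CPM and ran from -0.79 (without Control replicate 1) to 0.69, and was -0.04 without BRG1 replicate 3. Its values rest on Control libraries with almost no counts. SLFN11, SLFN12, SLFN12L and SLFN14 had no value in the fit of tested genes, and the ratios that involve SLFN11 or SLFN12 could not be formed. Over all genes, 1470 higher calls became 911 at an adjusted p under 0.01 and ran from 1020 to 1835 without single samples. The 156 lower calls were 317 with DESeq2, 904 with the replicate block, 1056 with the block in DESeq2, 33 at an adjusted p under 0.01 and 8 with a log2 fold change of at least 1, while leaving out BRG1 replicate 2 gave 38 and leaving out BRG1 replicate 3 gave 259. The cause of these shifts was not tested.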
